A study of Mus musculus with 38 samples.

Results

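The immediate-early transcription factors of the AP-1 and EGR families were followed across 8 groups of sorted mouse bone marrow cells. The set holds 10 genes: Fos, Fosb and Fosl2 of the Fos family, Jun, Junb and Jund of the Jun family, the zinc finger factor Egr1, the stress-induced factor Atf3, and the early response genes Ier2 and Ier3. Members were found by gene symbol, and all 10 were present among the 13260 genes of the table. They were chosen with the difference in Fos between bone-lining and central marrow myeloma cells already known, so that comparison is given as a description without a test.

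RNA was measured by SmartSeq2 sequencing of 38 samples of 100 cells each. All mice were of the strain C57Bl/KaLwRijHsd, entered the study at 8 to 10 weeks of age, received no treatment and were culled on day 23. Healthy mice had received PBS vehicle intravenously. Myeloma-bearing mice had received 5TGM1-GFP cells, a transplantable mouse myeloma line marked with green fluorescent protein. From the bone lining of both kinds of mice came endothelial cells (CD31+; 5 healthy and 5 myeloma-bearing samples), stromal progenitors (Sca1+ALCAM-; 5 and 5) and osteoprogenitors (ALCAM+Sca1-; 4 and 4). These 28 libraries are called niche cells here. GFP+ myeloma cells were sorted from the bone lining (5 samples) and from the central marrow (5 samples) of myeloma-bearing mice, and have no healthy counterpart. A letter names each sample. The labels do not say that samples come from separate mice, so p-values measure the spread between these samples only.

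Fos and Jun proteins are leucine zipper factors that pair to form AP-1, and Fos family proteins need a Jun family partner to bind DNA. Transcription of Fos, Fosb, Jun, Junb, Egr1 and Ier2 starts within minutes of a stimulus such as a growth factor, mechanical load, stress or tissue handling, without new protein synthesis, through MAP kinases acting on serum response factor and CREB at their promoters. Fosl2 and Jund are usually more steadily expressed. In bone, Fos is required for osteoclast formation and Fos family members affect osteoblasts.

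Recovered read totals on genes ran from 9735031 to 34883291 per library. Levels are RPKM, reads scaled to gene length and library size, so that members can be set side by side. Summed levels of 6 endothelial markers were 2168 to 4381 RPKM in endothelial libraries and at most 12.1 in the other niche libraries. Summed osteoprogenitor markers were 10333 to 69442 RPKM in osteoprogenitors, 938 to 3359 in stromal progenitors and 17.3 to 654 in endothelial cells. Summed plasma cell markers were 3721 to 10337 RPKM in myeloma cells and 79.9 to 452 in niche cells. The 5 stromal progenitor markers include Sca1 (Ly6a) and Cxcl12, which the study lists as enriched in endothelial cells too. Their sum did not separate the gate, with 1105 to 3106 RPKM in stromal progenitors and 2722 to 8974 in endothelial cells. Single markers were not compared. Neutrophil markers reached 7233 RPKM in healthy stromal progenitor library L and 8061 in myeloma-bearing stromal progenitor library E, against at most 179.8 elsewhere.

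Promoter sequence is shown for the Fos and Jun family members that were higher in bone-lining than in central marrow myeloma cells, and for Atf3, which differed between niche cell types. Each runs up to the RefSeq start site in GRCm38, written 5′ to 3′ along the gene's strand, and capitals mark a match to the cAMP response core (TGACG), the EGR site (GCGTGGG or GCGGGGG) or the TATA box (TATAAA) motifs on either strand. The Fos sequence lies at chr12:85473740-85473889 (plus strand), Fosb at chr7:19310046-19310195 (minus), Jun at chr4:95052223-95052372 (minus), Junb at chr8:84978749-84978898 (minus) and Atf3 at chr1:191183334-191183483 (minus).
Fos: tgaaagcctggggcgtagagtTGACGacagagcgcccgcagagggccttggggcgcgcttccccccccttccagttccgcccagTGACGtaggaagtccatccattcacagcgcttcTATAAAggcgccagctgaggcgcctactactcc
Fosb: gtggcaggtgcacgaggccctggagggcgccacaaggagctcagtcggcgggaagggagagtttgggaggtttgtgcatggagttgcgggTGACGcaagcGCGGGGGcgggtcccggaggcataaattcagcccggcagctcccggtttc
Jun: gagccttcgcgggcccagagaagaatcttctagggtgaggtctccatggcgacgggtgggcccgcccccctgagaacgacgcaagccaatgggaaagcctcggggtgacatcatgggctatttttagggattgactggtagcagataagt
Junb: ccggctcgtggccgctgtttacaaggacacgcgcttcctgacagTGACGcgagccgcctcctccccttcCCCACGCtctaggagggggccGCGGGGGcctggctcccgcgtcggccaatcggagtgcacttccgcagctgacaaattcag
Atf3: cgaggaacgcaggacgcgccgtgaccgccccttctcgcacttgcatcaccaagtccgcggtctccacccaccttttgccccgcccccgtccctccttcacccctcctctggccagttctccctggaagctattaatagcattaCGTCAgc

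The Fos window held TGACG at 129 to 125 and again at 66 to 62 bases before the start, and a TATA box at 33 to 28. The Fosb window held TGACG 60 to 56 bases and an EGR match 50 to 44 bases before the start. Junb held TGACG at 106 to 102 and EGR matches at 81 to 75 and 60 to 54, and Atf3 held TGACG at 7 to 3. In the Jun window none of these motifs matched. The search covered 250 bases and 8 members, since the RefSeq table used here matched 8 of the 10, without Egr1 and Ier2. TGACG was found in 4 of the 8 (Atf3, Fos, Fosb and Junb), against 17.8% of 32851 promoters of that length. An EGR match was found in 4 (Fosb, Fosl2, Ier3 and Junb; 13% of promoters), an NF-kB site in 4 (Fos, Fosb, Fosl2 and Ier3; 7.25%) and TATAAA in Fos alone (12.4%). The serum response CArG box (1.47%), the full cAMP response element (1.55%, a motif that contains TGACG) and the AP-1 site TGACTCA or TGAGTCA (4.46%) were in 0 of the 8 windows. Sites more than 250 bases before the start, inexact matches and the promoters of Egr1 and Ier2 were outside this search.

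In the GRCm38 annotation the Fos gene spans chr12:85473890-85477274 with 4 exons and Fosb chr7:19302696-19310118 with 4 exons. The RefSeq start used for Fosb lies inside that span. Fosl2 spans chr5:32136472-32157840 (4 exons) and Atf3 chr1:191170296-191183333 (4 exons). Jun (chr4:95049036-95052222), Junb (chr8:84976909-84978748), Jund (chr8:70697739-70700616) and Ier2 (chr8:84661331-84662852) are genes of 1 exon, and Ier3 (chr17:35821713-35822911) has 2. Antisense genes overlap Jun and Jund. Prdx2, on the other strand, overlaps an exon of a longer annotated Junb transcript outside the span given here. Reads of the overlapping strands cannot be told apart because counting did not use strand.

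Niche cells carried far more RNA of these factors than myeloma cells did. Every one of the 10 members had a higher mean in all 6 niche groups than in either myeloma group. In 8 members the lowest of 28 niche libraries lay above the highest of 10 myeloma libraries, which 1.68% of the 12683 genes tested did. The exceptions were Jund and Ier2. Fos led the set. Its median over niche libraries was 1574 RPKM, the 28th highest of the 13260 genes, followed by Ier3 (rank 111), Egr1 (117), Junb (323), Atf3 (371), Ier2 (379), Fosb (485), Jun (1681), Fosl2 (2196) and Jund (3584). The members thus ranged from 11.4 to 1574 RPKM in the same cells.

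**Figure D1:**
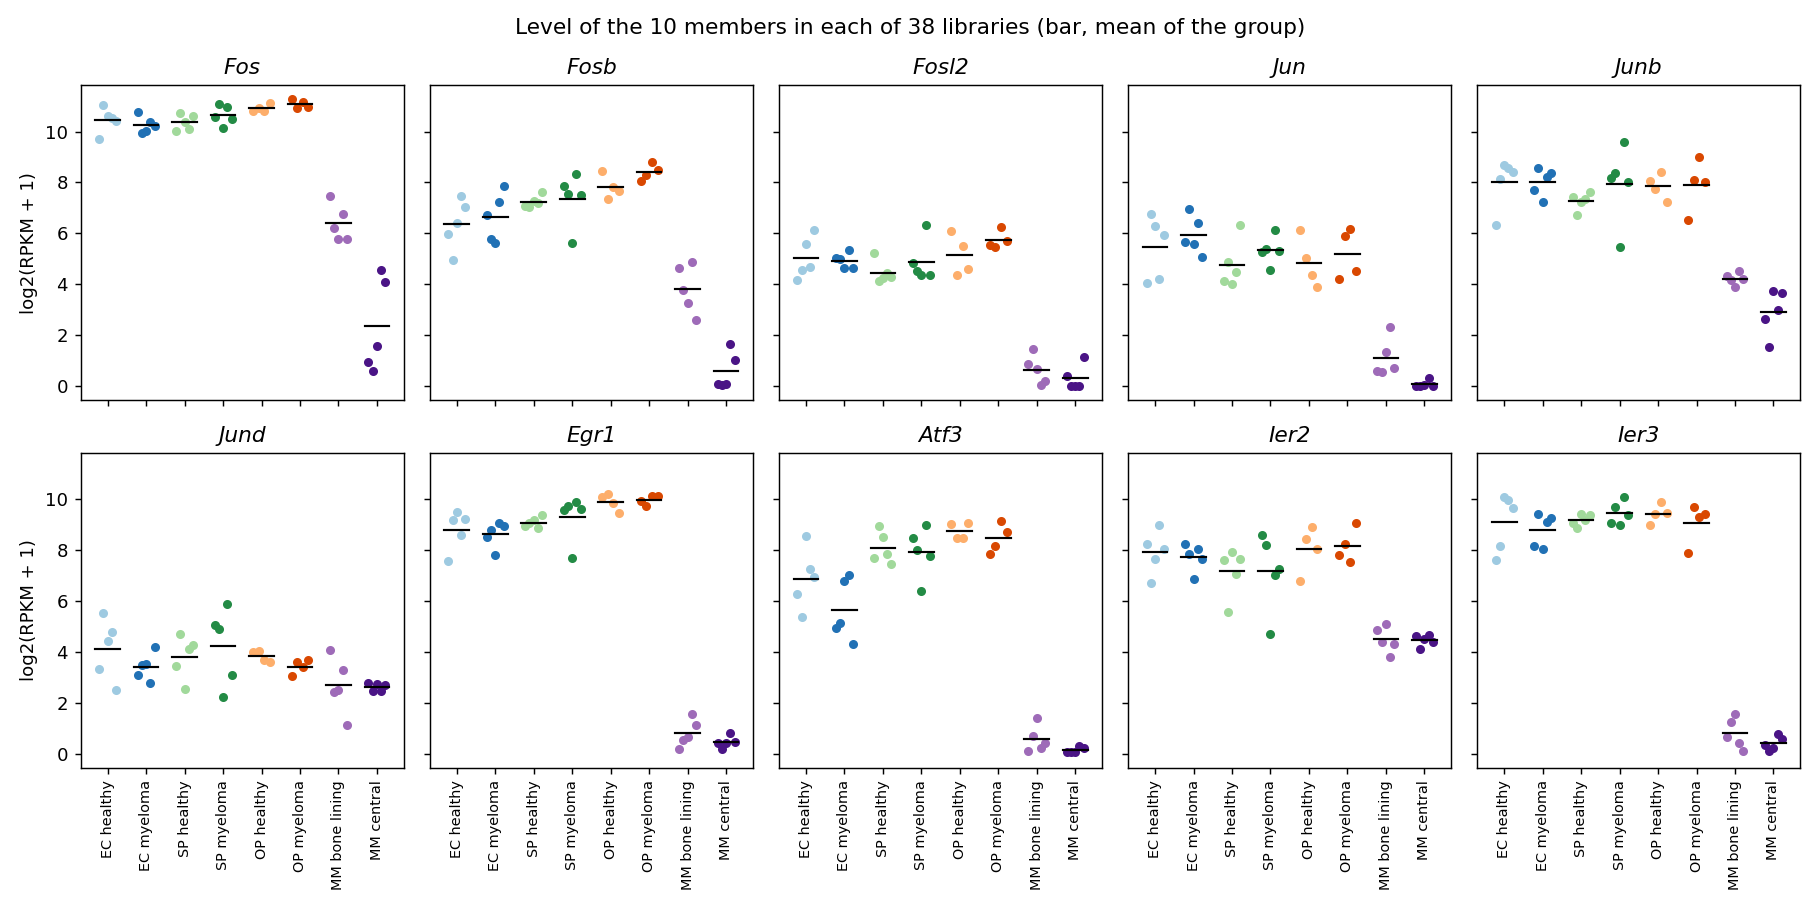
Level of each of the 10 members, as log2(RPKM + 1), in every library, with a point per library and a bar at the group mean. Endothelial cells (EC), stromal progenitors (SP) and osteoprogenitors (OP) come from healthy mice or, labelled myeloma, from myeloma-bearing ones, and MM are the myeloma cells of each site. Fos was 835 to 2473 RPKM in niche libraries, and Egr1 was 0.144 to 1.92 RPKM in myeloma cells.

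The Fos level was 835 in C, 2119 in L, 1586 in M, 1492 in N and 1369.9 in O RPKM in healthy endothelial cells, and 1726 in D, 977 in E, 1046 in G, 1328 in I and 1186 in J in those from myeloma-bearing mice. It was 1029.9 in C, 1697 in L, 1346 in M, 1098 in N and 1562 in O in healthy stromal progenitors and 1534 in D, 2151 in E, 1128 in G, 2021 in I and 1450.0 in J in myeloma-bearing ones. Osteoprogenitors had 1790.4 in L, 1959 in M, 1802 in N and 2263 in O in healthy mice and 2473 in D, 1971 in G, 2265 in I and 2010.0 in J in myeloma-bearing mice. Across all 28 libraries the highest was 2.96 times the lowest, and the osteoprogenitors were the tightest of the niche groups, at 1954 ± 220.1 (SD, n = 4) and 2179.7 ± 235 (SD, n = 4). In order of group means, myeloma-bearing and healthy osteoprogenitors came first, then myeloma-bearing stromal progenitors, healthy endothelial cells, healthy stromal progenitors and myeloma-bearing endothelial cells. Each neighbouring pair in that order had overlapping ranges.

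Fosb and Fosl2 followed Fos at lower levels. Fos made up 84.5% to 91.4% of the summed Fos family RPKM in the niche group means, Fosb 6.31% to 13.5% and Fosl2 1.55% to 2.30%. Niche libraries had Fosb at 29.6 to 449 RPKM and Fosl2 at 16.6 to 79.9. Fosb was 95.9 ± 57.6 RPKM (SD) in healthy and 116 ± 75 in myeloma-bearing endothelial cells. It was 152 ± 27.2 and 192 ± 98.2 in stromal progenitors, and 234 ± 79.5 and 346 ± 79.6 in osteoprogenitors. Fosl2 was 36.1 ± 21.7 RPKM (SD) in healthy and 30 ± 6.72 in myeloma-bearing endothelial cells. It was 21.9 ± 8.22 and 33.8 ± 26 in stromal progenitors, and 38.4 ± 21.8 and 54.1 ± 14.7 in osteoprogenitors. Both had their highest mean in myeloma-bearing osteoprogenitors and their lowest in endothelial cells for Fosb and in healthy stromal progenitors for Fosl2.

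Among Jun family members Junb dominated, with 77.8% to 83.8% of the summed family RPKM in niche group means, while Jun held 11.3% to 19.1% and Jund 3.18% to 7.60%. The summed Fos family exceeded the summed Jun family in every niche library, by 2.08 to 23.8 times. Jun was 55.8 ± 39.7 RPKM (SD) in healthy and 66.8 ± 36 in myeloma-bearing endothelial cells. It was 31.8 ± 26.6 and 41.9 ± 17 in stromal progenitors, and 33.6 ± 25.3 and 42 ± 26.4 in osteoprogenitors. Junb was 296 ± 130.5 RPKM (SD) in healthy and 274 ± 93.9 in myeloma-bearing endothelial cells. It was 157 ± 34 and 338 ± 267 in stromal progenitors, and 241 ± 78.6 and 281 ± 170.0 in osteoprogenitors. Jund was 21 ± 15.8 RPKM (SD) in healthy and 10.2 ± 4.32 in myeloma-bearing endothelial cells. It was 14.9 ± 7.8 and 26.2 ± 22.1 in stromal progenitors, and 13.2 ± 2.2 and 9.86 ± 2.02 in osteoprogenitors. Endothelial cells had the highest Jun mean and myeloma-bearing stromal progenitors the highest Junb and Jund means, where the SD came to 79.0% and 84.5% of the mean.

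Egr1, which recruits NAB corepressors and activates growth-response genes, spans chr18:34861207-34864956. Its level was 187 in C, 574 in L, 727 in M, 388 in N and 590.0 in O RPKM in healthy endothelial cells and 363 in D, 439.9 in E, 223 in G, 530.3 in I and 489 in J in myeloma-bearing ones. It was 486 in C, 529.6 in L, 584 in M, 461 in N and 664 in O in healthy stromal progenitors and 756 in D, 858 in E, 206 in G, 948 in I and 775 in J in myeloma-bearing ones. Osteoprogenitors had 1072 in L, 1172 in M, 932 in N and 700.5 in O in healthy mice and 967 in D, 840.1 in G, 1108 in I and 1131 in J in myeloma-bearing mice. Osteoprogenitors were thus at or above 700 RPKM throughout, while 1 myeloma-bearing stromal progenitor library, G, lay apart from its group. Ier3, an early response gene that modulates apoptosis, lay at 192 to 1089 RPKM in niche libraries, and Ier2 at 25.3 to 533. Ier3 was 673 ± 410.3 RPKM (SD) in healthy and 478 ± 191 in myeloma-bearing endothelial cells. It was 583 ± 91 and 725 ± 241 in stromal progenitors, and 706 ± 178 and 591 ± 248 in osteoprogenitors. Ier2 was 273 ± 146 RPKM (SD) in healthy and 221 ± 70.5 in myeloma-bearing endothelial cells. It was 164 ± 76.4 and 197 ± 142 in stromal progenitors, and 299 ± 157 and 309.7 ± 157 in osteoprogenitors. Neither showed a group apart from the others, since all 6 ranges overlapped with at least 1 neighbour in the order of means.

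In myeloma cells the members parted. Egr1 was 0.146 in D, 0.461 in E, 0.575 in G, 1.92 in I and 1.19 in J RPKM in the bone lining and 0.319 in D, 0.144 in E, 0.33 in G, 0.737 in I and 0.367 in J in the central marrow. The 5 libraries of each group held 270 and 123 reads in all. The 2 groups overlap and all 10 libraries lie below 2 RPKM. The niche median was 1514 times the myeloma median. That ratio was 1622 for Ier3, 1405 for Atf3, 121 for Fosl2, 109 for Jun, 47.4 for Fosb, 41.6 for Fos, 19.9 for Junb, 10.8 for Ier2 and 2.21 for Jund. In the RPKM scaling a read of a myeloma library was divided by a size 1.64 times that used for a read of a niche library (ratio of medians), so the Jund ratio depends on the scaling, while the other ratios are at least 10.8.

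The ratio of Fos to Egr1 RPKM was higher in every bone-lining myeloma library than in any niche library, while the central marrow range overlapped that of the niche. It was 1.67 to 5.47 in the 28 niche libraries (2.74 ± 1.03, SD), 45.5 to 1212 in bone-lining myeloma cells and 2.93 to 43.6 in central marrow myeloma cells. The bone-lining myeloma cells, sorted from bones flushed, crushed and digested with collagenase like the niche cells, had Fos at rank 1103 of 13260 genes and Egr1 at rank 8578. The Fos share of the Fos family was 85.4% ± 4.52 (SD, n = 5) there and 88.6% ± 9.35 in central marrow. Jund made up 24.0% ± 13.9 of the Jun family in bone-lining and 45.1% ± 16.4 in central marrow myeloma cells.

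**Figure D2:**
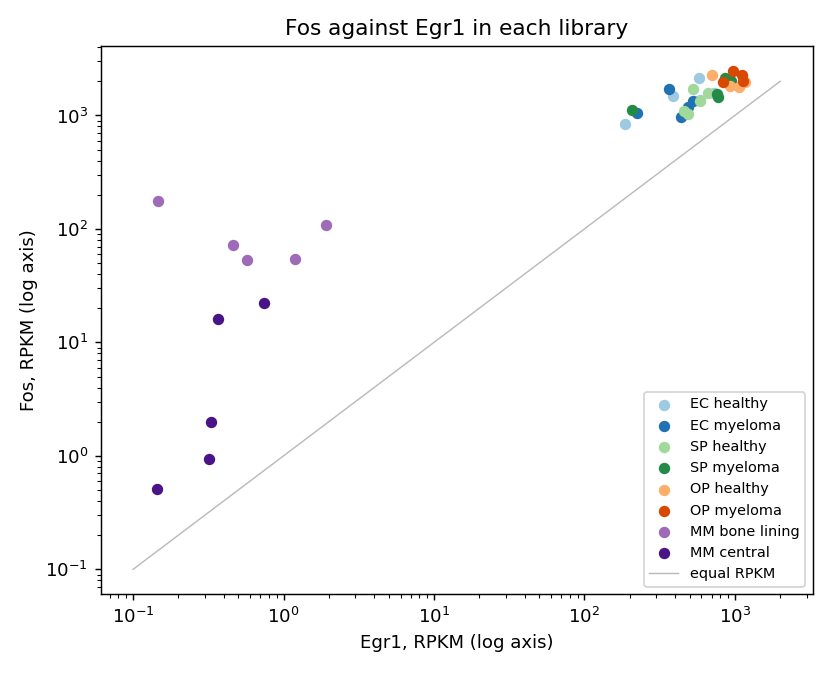
Fos against Egr1 RPKM (both log scales), 1 point per library, coloured by group, with the line of equal RPKM. The 28 niche libraries cluster at ratios of 1.67 to 5.47, and the bone-lining myeloma libraries sit at low Egr1 with Fos of 53.5 to 177 RPKM.

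Bone-lining myeloma cells had higher Fos than central marrow myeloma cells. Fos was 177 in D, 72.6 in E, 53.5 in G, 109 in I and 54.3 in J RPKM in bone-lining cells. It was 0.937 in D, 0.512 in E, 1.98 in G, 22.3 in I and 16 in J RPKM in central marrow cells. The lowest bone-lining library was above the highest central marrow library. The means were 93.2 ± 51.9 (SD, n = 5) and 8.33 ± 10.1 (SD, n = 5), and the difference of log2(RPKM + 1) means was 4.05, the largest among the 8857 genes that passed the filter on low values (more than 1 RPKM in 4 or more of these 10 libraries). That rank rests on the scale: Fos stayed at rank 1 after quantile normalization, but with a pseudocount of 0.1 it was at rank 7 (4.61) and Fosb at rank 2 (5.13). By the ratio of mean RPKM, Fos was 11.2-fold, Fosb 24-fold and Jun 27.1-fold higher in the bone lining. By letter, which the labels do not tie to a mouse, the ratios were 189 in D, 142 in E, 27.0 in G, 4.88 in I and 3.40 in J. The central marrow values rest on 42 reads in D, 29 in E, 86 in G, 927 in I and 713 in J.

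Fosb, a close paralogue of Fos, was 24.1 in D, 12.7 in E, 8.57 in G, 28.3 in I and 4.98 in J RPKM in the bone lining and 0.0495 in D, 0.0294 in E, 0.0511 in G, 2.14 in I and 1.01 in J in the central marrow. The groups did not overlap, the log2 difference was 3.26 (rank 4 of 8857), and the central values in D, E and G are 4, 3 and 4 reads. Junb was 19 in D, 17 in E, 14 in G, 21.9 in I and 17.3 in J RPKM in the bone lining and 5.15 in D, 1.91 in E, 12.2 in G, 7.02 in I and 11.6 in J in the central marrow, again without overlap, with a log2 difference of 1.31. Jun had 0.512 in D, 0.467 in E, 1.52 in G, 4.02 in I and 0.611 in J RPKM in the bone lining and 0 in D, 0.0116 in E, 0.0151 in G, 0.237 in I and 0 in J in the central marrow, where D and J held 0 reads, which allows up to 0.044 and 0.0442 RPKM (3 reads, counting error only). All 5 central libraries together held 17 Jun reads, against 524 in the bone lining. The Jun ranges did not overlap, and the gene fell below the filter on low values.

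The other 6 members overlapped between both kinds of myeloma cells. The log2 differences were 0.42 for Atf3, 0.39 for Ier3, 0.36 for Egr1, 0.33 for Fosl2, 0.061 for Jund and 0.030 for Ier2. The sign turned for Ier2 under quantile normalization (−0.11) and for Jund with a pseudocount of 0.1 (−0.0093). Atf3, Ier3, Egr1 and Fosl2 averaged below 1 RPKM in both groups, where this scale understates ratios. With a pseudocount of 0.1 their log2 differences were 1.29, 0.85, 0.76 and 1.19, and the ratios of mean RPKM 5.34, 2.56, 2.26 and 2.19. Jund was 6.99 ± 5.65 (SD, n = 5) RPKM in the bone lining and 5.21 ± 0.625 (SD, n = 5) in the central marrow, and Ier2 22.5 ± 8.08 (SD, n = 5) and 21.1 ± 3.13 (SD, n = 5). In all, 5 members passed the filter and 3 of them (Fos, Fosb and Junb) did not overlap, against 0.903% of the 8857 genes, as a description since the members were picked by this contrast. Of these 3, Fos and Fosb passed the filter only through their bone-lining libraries. Over all 10 members the median log2 difference was 0.41, and over all genes −0.01.

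**Figure D3:**
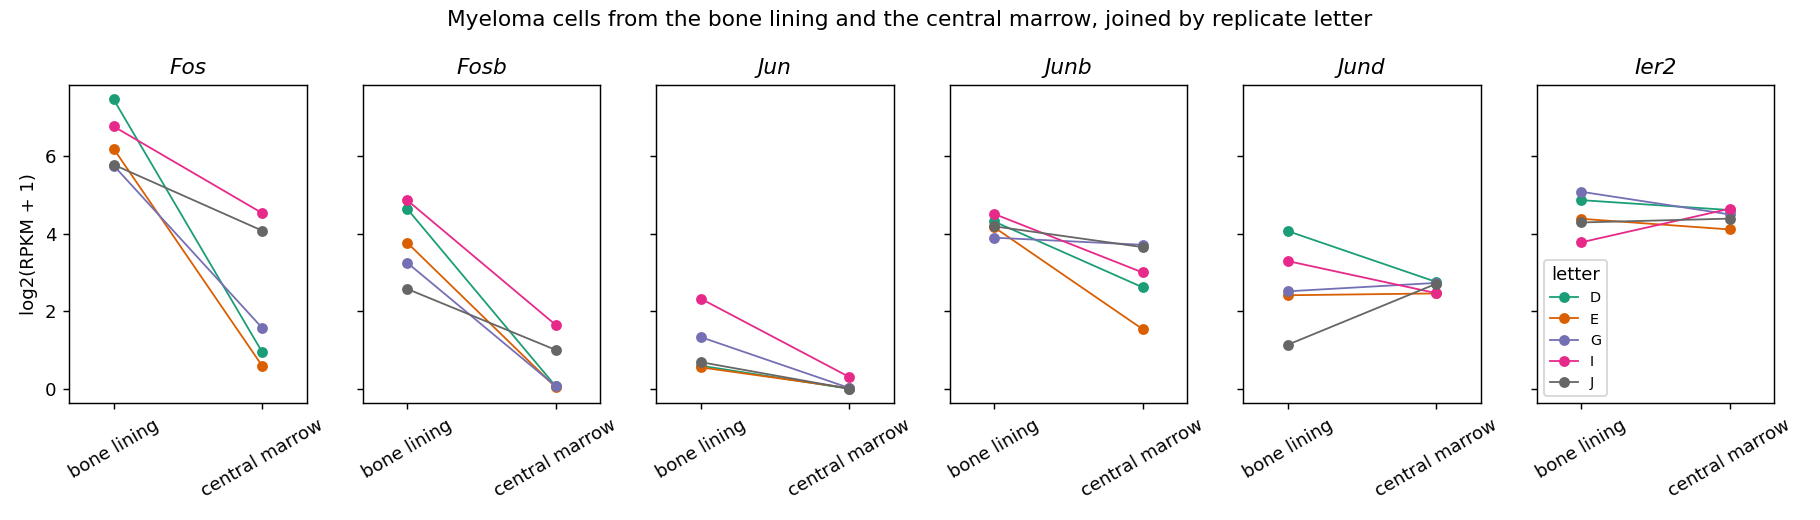
Log2(RPKM + 1) of Fos, Fosb, Jun, Junb, Jund and Ier2 in myeloma cells of each site, with a point per library and a line joining libraries of the same letter. Fos falls from 53.5 to 177 RPKM in bone-lining libraries to 0.512 to 22.3 in central marrow libraries, and Jund and Ier2 overlap.

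The central marrow libraries were not uniform. The labels of D, E and G end in 4a and those of I and J in 6, and the meaning of the endings is not stated. Fos was 0.512 to 1.98 RPKM in D, E and G and 16 to 22.3 in I and J. Fosb, Egr1, Atf3 and Ier3 were also higher in both of I and J than in all of D, E and G. Of the 8857 genes that passed the filter 11.8% were, and of these 5 members Fos and Fosb passed it. The Fos log2 difference between bone lining and central marrow was 5.44 among D, E and G and 1.97 among I and J, and that of Fosb was 3.83 and 2.4. Fos, Fosb, Jun and Junb were higher in the bone-lining library of all 5 letters. Over all letters, 4 members were higher in the bone lining without overlap. Among D, E and G alone 7 were (Fos, Fosb, Fosl2, Jun, Junb, Atf3 and Ier3), of which 3 passed the filter, against 5.71% of the 8857 genes. None of the 10 was lower there without overlap, against 4.04% of the genes. Among I and J alone 5 members were higher without overlap (Fos, Fosb, Jun, Junb and Egr1), of which 3 passed the filter, against 14% of the genes. Ier2 and Ier3 were lower without overlap among I and J, of which 1, Ier2, passed the filter, and 16.6% of the genes were lower, so the count is no result about the members. Ier3 rests there on 9 and 1 reads in the bone lining against 15 and 11.

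Markers of the other sorted cells were low in both kinds of myeloma cells. Of 6 endothelial markers summed, bone-lining libraries had 13.9 to 35.1 RPKM and central marrow libraries 14.6 to 27.7. The 7 osteoprogenitor markers summed to 26.3 to 76.9 RPKM with Alcam and Sp7 at 0 in every bone-lining library, and to 38.3 to 97.7 with Sp7 and Runx2 at 0 in every central marrow library. The 5 stromal progenitor markers summed to 0.492 to 38.1 RPKM (median 9.08) and 0.140 to 4.72 (median 0.816). Neutrophil markers (4 of 7 in the table) summed to 0 to 18.9 and 0.470 to 44.4 RPKM, and macrophage and osteoclast markers (6 of 7) to 170.3 and 903 at the extremes in the bone lining and 406 and 638 in the central marrow. Plasma cell markers (5 of 6) summed to 4790.1 to 10337 and 3721 to 8350 RPKM. Of 6 erythroid markers 2 were in the table, at 0 to 14.4 RPKM summed over all 38 libraries, and of 4 T and NK cell markers 0 were. The part of each in the Fos difference was not tested. Niche of origin and handling cannot be told apart here, because bone-lining cells went through collagenase digestion and the study describes central marrow as flushed out. In pools of 100 cells, fewer cells with a transcript and less transcript per cell cannot be told apart either.

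Other immediate-early genes differed in part between these cells. Of 34 other immediate-early genes listed, 21 passed the filter, 4 were higher in the bone lining without overlap (Nr4a1, Klf6, Nfkbia and Nfkbiz) and 1 was lower (Myc). Over the 8857 genes that passed, 0.903% were higher without overlap. The share of lower genes was not taken, so the 1 lower gene has no share beside it. Nr4a1 passed the filter only through its bone-lining libraries, with at most 0.568 RPKM in the central marrow. Klf6, a zinc finger factor, was 35.4 ± 17.4 RPKM in the bone lining and 5.24 ± 3.16 in the central marrow, and the orphan receptor Nr4a1 4.21 ± 2.13 and 0.198 ± 0.225. Myc was 23.6 ± 11.9 and 84.9 ± 13.2 RPKM. The MAP kinase phosphatase Dusp1 was 43.5 ± 12.3 and 14.2 ± 17.7 RPKM with overlapping ranges. The lists named here were chosen with results of these data known. The highest log2 differences of the list were those of Klf6 (2.55), Dusp1 (2.22) and Nr4a1 (2.0), and the lowest those of Myc (−1.93), Zfp36l1 (−0.51) and Klf10 (−0.48). The median log2 difference of this list was 0.52, against −0.01 over all genes.

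Over the 8857 genes that passed the filter, 0.903% were higher in the bone lining without overlap, the share for the counts that follow. Of the 20 other AP-1 and bZIP partners, 11 passed the filter and 1 did not overlap. That was Nfe2l2, a regulator of oxidative stress genes, at 43.7 ± 12.4 RPKM in the bone lining and 16.7 ± 4.22 in the central marrow. Of 28 genes upstream of the members (MAP kinases, serum response and CREB factors), 26 passed and 1 did not overlap: the S6 kinase Rps6ka3 at 10.4 ± 11.1 and 1.11 ± 0.943 RPKM. Among 14 heat shock genes, 11 passed and none was free of overlap. The highest and lowest log2 differences among bZIP partners were Maff (1.05) and Ddit3 (0.52) after Nfe2l2, and Mafk (−0.37), Atf1 (−0.087) and Cebpb (0.031). Among upstream genes they were Crem (1.22) and Braf (0.73) after Rps6ka3, and Elk4 (−1.07) and Mapk3 (−0.69). Among heat shock genes they were Dnajb1 (0.97), Hspa5 (0.43) and Hspa8 (0.33), and Bag3 (−0.82), Dnajb4 (−0.20) and Hspe1 (−0.063). All of these overlapped between the groups except Nfe2l2 and Rps6ka3. The median log2 differences of the bZIP, upstream and heat shock lists were 0.21, 0.12 and 0.18.

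The second question the design allows is whether members differ between niche cell types within healthy and within myeloma-bearing mice. In healthy mice endothelial cells had lower Atf3, Egr1 and Fosb than osteoprogenitors, and in myeloma-bearing mice the same 3 members were lower again. Of the 12683 genes tested, 20.3% were called in healthy and 18.1% in myeloma-bearing mice, so 3 of 10 members is no result about the members as a set. The other 7 members were called in neither contrast. A gene was called at an adjusted p below 0.1 and an absolute log2 difference above 1 in limma.

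Atf3 showed the largest difference. It was 76.5 in C, 40.6 in L, 379 in M, 152 in N and 120.3 in O RPKM in healthy and 29.6 in D, 34.3 in E, 109 in G, 127 in I and 19 in J in myeloma-bearing endothelial cells. Stromal progenitors had 206 in C, 495 in L, 362 in M, 229 in N and 175 in O in healthy and 359 in D, 256 in E, 83.4 in G, 509.9 in I and 219 in J in myeloma-bearing mice. Osteoprogenitors had 522 in L, 350.2 in M, 359 in N and 541 in O in healthy and 227 in D, 285 in G, 565 in I and 412 in J in myeloma-bearing mice. Endothelial and osteoprogenitor ranges overlap in healthy mice through 1 endothelial library, M, and do not overlap in myeloma-bearing mice. The log2 difference of endothelial cells against osteoprogenitors was −1.88 ± 0.57 (SE; adjusted p = 0.0193) in healthy and −2.82 ± 0.57 (SE; adjusted p = 0.000349) in myeloma-bearing mice. Against stromal progenitors it was −1.21 ± 0.54 (SE; adjusted p = 0.136), not called, in healthy mice, and −2.30 ± 0.54 (SE; adjusted p = 0.00217) in myeloma-bearing mice, where all 11 alternatives called it.

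The log2 difference of Egr1 in endothelial cells against osteoprogenitors was −1.09 ± 0.41 (SE; adjusted p = 0.0662) in healthy and −1.36 ± 0.41 (SE; adjusted p = 0.019) in myeloma-bearing mice. In myeloma-bearing mice the 5 endothelial libraries (223 to 530.3 RPKM) lay below all 4 osteoprogenitor libraries (840.1 to 1131). Fosb was 61.1 in C, 29.6 in L, 83 in M, 175 in N and 130.5 in O RPKM in healthy endothelial cells and 347 in L, 163 in M, 223 in N and 202 in O in healthy osteoprogenitors. In myeloma-bearing mice it was 104 in D, 53.2 in E, 47.7 in G, 148 in I and 229 in J in endothelial cells and 263 in D, 310.4 in G, 449 in I and 362 in J in osteoprogenitors. Its log2 difference was −1.46 ± 0.56 (SE; adjusted p = 0.0743) in healthy and −1.78 ± 0.56 (SE; adjusted p = 0.0262) in myeloma-bearing mice.

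These contrasts share their endothelial or osteoprogenitor libraries. Between endothelial cells and stromal progenitors 19.5% of genes were called in healthy and 17.2% in myeloma-bearing mice, against 0 and 1 members. Between stromal progenitors and osteoprogenitors 3.95% and 4.73% were called, and no member, although Fos and Egr1 in healthy stromal progenitors lay wholly below osteoprogenitors (2.51% of genes did). In myeloma-bearing mice 0 members lay so (2.4% of genes). Of the members, 5 (Fos, Fosb, Fosl2, Egr1 and Atf3) lay wholly below osteoprogenitors in myeloma-bearing endothelial cells, as did 6.84% of genes, and 0 in healthy endothelial cells (6.63% of genes).

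The healthy result is the less firm. Without the libraries of letter L no member was called, with Atf3 at −1.42 (adjusted p = 0.14), Egr1 at −1.12 (0.13) and Fosb at −0.90 (0.40). A pseudocount of 0.1 and the fit of the 2 groups alone called 1 member each. In myeloma-bearing mice Atf3, Egr1 and Fosb were called under all 11 alternatives. The main fit shared 1 spread over all 38 libraries, including the variable central marrow ones, and the median log2 difference of all genes between healthy endothelial cells and osteoprogenitors was −0.21. That median was −0.92 in voom-limma on recovered reads, which called Atf3 (−1.80) and Fosb (−1.35) but not Egr1 (−0.83, adjusted p = 0.0367), and 0.05 after quantile normalization, where all 3 were called (Atf3 −2.17, Egr1 −1.35, Fosb −1.71). Over the 11 alternatives in healthy mice Atf3 was called in 9, Fosb in 5 and Egr1 in 3.

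**Figure D4:**
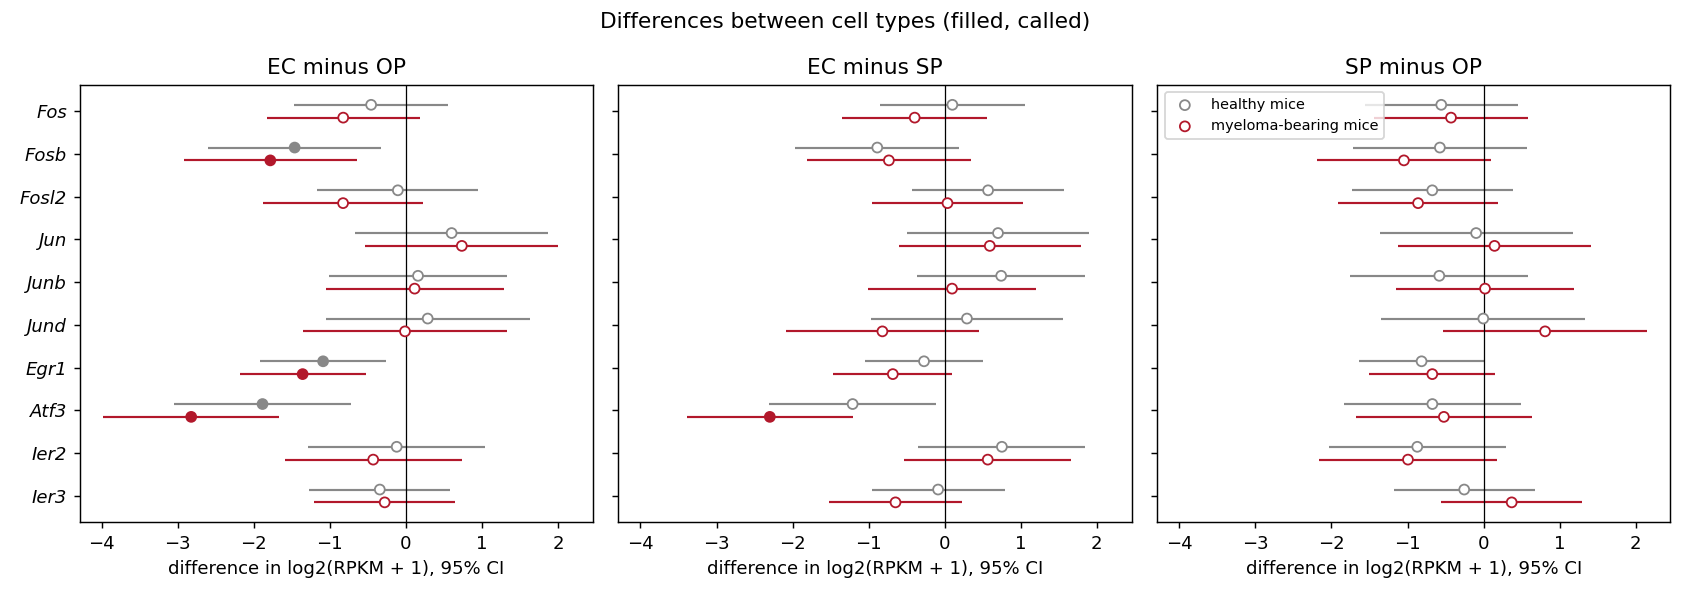
Log2 difference in log2(RPKM + 1) between niche cell types for each member, with 95% confidence intervals, in healthy and in myeloma-bearing mice. Filled points are called at adjusted p below 0.1 and an absolute difference above 1, and Atf3, Egr1 and Fosb are below 0 in endothelial cells against osteoprogenitors in both.

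The other members were not called between cell types. For Fos the log2 difference of endothelial cells against osteoprogenitors was −0.82 ± 0.50 (SE; adjusted p = 0.326) in myeloma-bearing mice and −0.46 ± 0.50 (SE; adjusted p = 0.623) in healthy mice. The fit of the 2 myeloma-bearing groups alone gave Fos an adjusted p of 0.025. Voom-limma on recovered reads gave −0.79 ± 0.13 (SE, adjusted p = 2.13e-05) in myeloma-bearing mice and −0.49 ± 0.15 (adjusted p = 0.0208) in healthy mice, and −0.64 ± 0.16 (adjusted p = 0.023) for healthy stromal progenitors against osteoprogenitors. For Fos in myeloma-bearing endothelial cells against stromal progenitors it gave −0.69 ± 0.12 (adjusted p = 4.71e-05). In that contrast Egr1 had −0.79 ± 0.30 (adjusted p = 0.0761), and Fosb in myeloma-bearing stromal progenitors against osteoprogenitors −0.96 ± 0.31 (adjusted p = 0.0976). These differences were under the size needed for a call. Jun had its highest means in endothelial cells, 55.8 ± 39.7 (SD, n = 5) and 66.8 ± 36 (SD, n = 5) RPKM in healthy and myeloma-bearing mice, and the log2 difference from osteoprogenitors was 0.60 ± 0.63 (SE; adjusted p = 0.60) and 0.74 ± 0.63 (SE; adjusted p = 0.531). The 95% confidence interval of the Jun difference in myeloma-bearing mice was −0.53 to 2.01.

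The 31 other immediate-early genes tested included 3 higher and 10 lower in healthy endothelial cells than in osteoprogenitors, and 3 higher and 7 lower in myeloma-bearing ones, where 20.3% and 18.1% of all genes were called. Ctgf and Cyr61, secreted matricellular proteins, had log2 differences of −3.95 ± 0.57 and −1.66 ± 0.48 (± SE) in healthy mice and −4.88 ± 0.57 and −2.42 ± 0.48 in myeloma-bearing mice. Nfil3, a bZIP repressor, the growth inhibitor Btg2 and the neuronal gene Arc were also lower in both. Ptgs2, Egr2, Gadd45b, Klf10 and Nr4a2 were called lower in healthy mice, and Tob1 and Myc in myeloma-bearing mice. Klf2, a factor of endothelial shear response, had 1.80 ± 0.45 and 1.45 ± 0.45, and Sgk1 and Rhob were higher in both as well. The list median was −0.61 in healthy and −0.55 in myeloma-bearing mice, where all genes had medians of −0.21 and −0.11. Against stromal progenitors, 4 were higher and 4 lower in healthy endothelial cells (Klf2, Rhob, Sgk1 and Zfp36l1 higher, Arc, Ctgf, Gadd45b and Nfil3 lower). In myeloma-bearing mice Rhob was higher, and Ctgf, Cyr61, Myc, Nfil3 and Tob1 were lower. Between stromal progenitors and osteoprogenitors the calls were 0 in healthy mice and Arc, lower, in myeloma-bearing mice.

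In the same contrasts, with the same shares over all genes, the other lists had these calls. Of 20 other AP-1 and bZIP partners, 1 was higher and 5 lower in healthy endothelial cells than in osteoprogenitors, and 3 higher and 2 lower in myeloma-bearing mice. Batf, which pairs with Jun proteins in lymphocytes, had log2 differences of −4.52 ± 0.91 and −3.98 ± 0.91 in healthy and myeloma-bearing mice. Batf3, Cebpd, Fosl1 and Mafk were also called lower in healthy mice. In myeloma-bearing mice Atf2 was also lower, and Batf2 and Maf were higher. Among 28 upstream genes, 3 were higher and 2 lower in healthy mice and 3 higher and 1 lower in myeloma-bearing mice, no larger a share than that of all genes. Elk3, an ETS partner of serum response factor, and Mkl2, a serum response coactivator, were higher in both. The Elk3 log2 difference was 3.40 ± 0.62 in healthy and 2.95 ± 0.62 in myeloma-bearing mice. Map3k1 was also higher and Braf lower in healthy mice, and Creb1 was higher and Map2k3 lower in myeloma-bearing mice. Of 14 heat shock genes 1 was higher and 5 lower in healthy mice and 1 higher and 2 lower in myeloma-bearing mice. Hspb1 had 3.43 ± 0.54 and 3.17 ± 0.54, and Hspa5 and Dnajb1 were lower in both. Hspd1, Hspe1 and Hsph1 were the others called lower in healthy mice.

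Against stromal progenitors, healthy endothelial cells had Atf5, Fosl1 and Maff lower among bZIP partners, and myeloma-bearing ones Batf2, Maf and Nfe2l2 higher and Atf2, Atf5 and Cebpb lower. Elk3, Map3k1 and Mkl2 were higher in both and Elk4 in myeloma-bearing mice. Among heat shock genes Hspb1 was higher and Hspa5, Hspd1 and Hsph1 were lower in healthy mice, and 0 were called in myeloma-bearing mice. Between stromal progenitors and osteoprogenitors, Batf was lower and Hspb1 higher in stromal progenitors of both kinds of mice, and Batf3 lower in those of healthy mice.

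The third comparison asks whether myeloma in the mouse changed the members in each niche cell type, and here limma called 0 of 10 members in endothelial cells, stromal progenitors or osteoprogenitors. None had an unadjusted p below 0.05 in that limma fit, in any of the 3 comparisons. Called among all genes were 0 of 7880 in endothelial cells (0%; 414 at an unadjusted p below 0.05), 0 of 8747 in stromal progenitors (437) and 1 of 8664 in osteoprogenitors (0.0115%; 422). With voom-limma on recovered reads 0 members were called, although it called 251, 82 and 28 genes, and 1, 1 and 0 members had an unadjusted p below 0.05. They were Atf3 in endothelial cells (log2 difference −1.67, adjusted p = 0.323) and Fos in stromal progenitors (0.56, adjusted p = 0.0673). In endothelial cells member differences ranged from −1.25 for Atf3 (interval −2.84 to 0.35) to 0.48 for Jun, and 7 of 10 were below 0. In stromal progenitors they ranged from −0.16 for Atf3 to 0.65 for Junb, with 8 above 0 and a median of 0.28. The median was 0.58 without library G and 0.07 without library I. Without G, Junb was at 1.26 (unadjusted p = 0.00668, adjusted p = 0.729 in limma) and Egr1 at 0.62 (0.0402 and 0.792). In osteoprogenitors they ranged from −0.40 for Jund to 0.62 for Fosl2, with 7 above 0. Leaving out each letter moved the member median between −0.41 (without C) and −0.0072 (without G) in endothelial cells, where it was −0.19, and between −0.025 (without O) and 0.17 (without M) in osteoprogenitors, where it was 0.096. Without L, Atf3 in endothelial cells (−1.62, adjusted p = 0.852) and Fosb in osteoprogenitors (0.80, adjusted p = 0.981) had an unadjusted p below 0.05. The 95% confidence intervals of the members reached from −2.84 to 2.14 over the 3 cell types, so the absence of a call does not show equal levels.

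The differences between cell types in that change were not called for any member either. Between endothelial cells and stromal progenitors the members ranged from −1.11 for Jund to 0.15 for Fosb, between endothelial cells and osteoprogenitors from −0.94 for Atf3 to 0.13 for Jun, and between stromal progenitors and osteoprogenitors from −0.47 for Fosb to 0.81 for Jund. Of 12683 genes, 0.0946%, 0.173% and 0.126% were called in these contrasts. On the list of bZIP partners Batf3 was called in the 2 contrasts against osteoprogenitors. No member had an unadjusted p below 0.05 in limma, while voom-limma gave 2, 0 and 1 members under that value. The lowest was Fos between endothelial cells and stromal progenitors (−0.83 ± 0.20, adjusted p = 0.0676), under the size needed for a call.

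Over 38 libraries and after subtraction of group means from log2(RPKM + 1), 44 of the 45 pairs of members had a Pearson r above 0, with a median of 0.32. Junb and Egr1 were the closest pair at 0.73 (0.81 over the 28 niche libraries), followed by Junb and Ier3 at 0.61, and the lowest was Jun and Ier2 at −0.24. These are descriptions, since points share libraries and library scaling. Myeloma-bearing stromal progenitor library G was the lowest of its group for 9 of 10 members, and library I of the same group was the highest for 8. Library G had 18900537 reads, and osteoprogenitor markers summed to 938 RPKM, the lowest of its group, and stromal progenitor markers to 3106, the highest. In healthy endothelial cells library C was the lowest for 6 members, with 14708562 reads, the fewest of its group. Its neutrophil markers summed to 161.8 RPKM, against 0 to 1.98 in the other libraries of the group, and its osteoprogenitor markers to 119.9, against 17.3 to 107.4. Without the libraries of letter C, 1 of the 3 healthy calls was kept (Atf3, −1.73, adjusted p = 0.0492), with Egr1 at −0.77 (0.219) and Fosb at −1.36 (0.13). The part of these values in the members' levels was not tested.

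**Figure D5:**
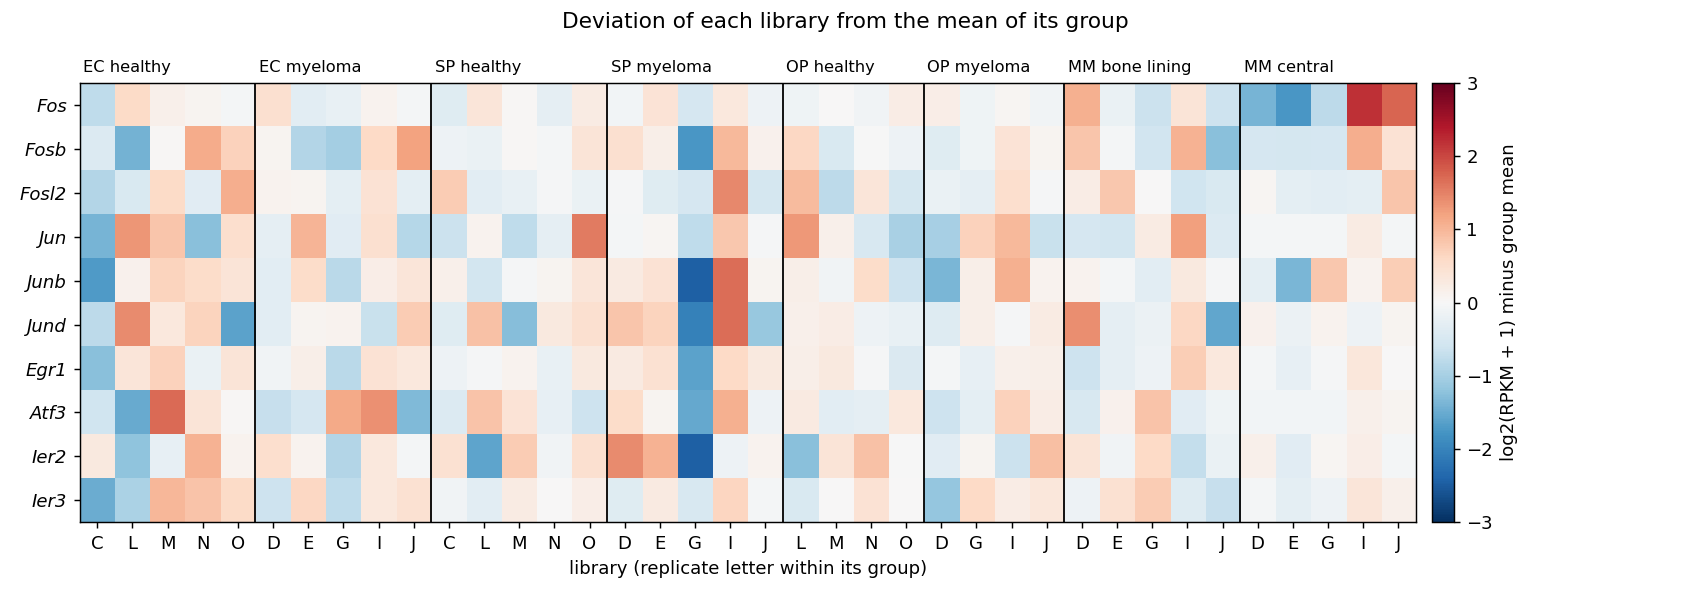
Heat map of log2(RPKM + 1) minus the mean of the group, for 10 members (rows) in 38 libraries (columns, by replicate letter), red above and blue below the mean. Averaged over members, myeloma-bearing stromal progenitor library G was lowest at −1.41 and library I highest at 0.90.

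The genes outside the set most like Fos in the same measure, among the 7687 genes with over 1 RPKM in 19 or more libraries, were Dusp1 (r = 0.67), Vaultrc5 (0.54), Zfp36 (0.53), Id1 (0.51) and Ddx5 (0.46). For Fosb they were Zfand5 and Rnf126 (0.65 each), Bcl6 and Hexim1 (0.64 each) and Pnrc1 (0.63). For Egr1 they were Snhg8 and P4hb (0.67 each), Eif1 (0.66) and Klf4 and Ifrd1 (0.64 each). No function or control is inferred from these values. The Fos list leans on the central marrow libraries, where the SD of its log2(RPKM + 1) was 1.83, against 0.15 to 0.49 in niche groups. Fos and Egr1, for example, had an r of 0.28 over all libraries and 0.61 over the 28 niche libraries. For Fos and Fosb these were 0.48 and 0.23.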

How the data were processed

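The authors sorted 100 cells per sample, prepared SmartSeq2 libraries from polyA RNA, sequenced 50-base single reads, aligned them with STAR 2.4.0 to GRCm38/mm10 and counted reads per gene with featureCounts of Subread 1.4.5-p1. The deposited values are RPKM that the authors computed with edgeR for genes above 1 CPM in at least 4 samples. Read counts were recovered from the RPKM steps: 100% of 13260 genes came out whole (tolerance 0.001). The size that the authors' scaling gave each read on genes varied 2.55-fold between the 38 libraries.

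Genes over 1 RPKM in 4 or more of the libraries in a fit were tested with limma 3.58.1 (eBayes with trend, R 4.3.3) on log2(RPKM + 1). Fits held 2 groups for myeloma-bearing against healthy mice, and all 38 libraries otherwise. Calls needed both an absolute log2 difference above 1 and p, adjusted by Benjamini-Hochberg over all genes tested, below 0.1. The study's voom-limma needs counts, so it was run on recovered reads as an alternative. Other alternatives were a pseudocount of 0.1, no filter, quantile normalization, another set of libraries in the fit, a replicate block and leaving out each letter. The fits were tested on simulated data.

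The members and all gene lists (other AP-1 and bZIP partners, other immediate-early genes, upstream genes, heat shock genes and cell markers) were chosen with earlier results of these data known. All members are named, and of each list the 3 highest and 3 lowest differences between myeloma sites and genes called between cell types. Some list genes that this rule names are not reported here. Likeness lists hold the 5 genes of highest Pearson r. Sequences are RefSeq, GRCm38. Limits given for 0 reads cover counting error only.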

Additional observations from a re-analysis of the deposited data

Results flagged for a closer look

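Of the 80 sets of values checked (10 members in 8 groups), 5 had a library far from the rest by Dixon's criterion at the 95% level, and chance marks about 1 set in 20. Fosl2 was 36.4 RPKM in healthy stromal progenitor library C, where the others were 16.6 to 20.5. Fosl2 was 79.9 RPKM in myeloma-bearing stromal progenitor library I, where the others were 19.4 to 27.9. Jun was 0.237 RPKM in central marrow myeloma library I, where the others were 0 to 0.0151 and the value rests on 15 reads. Junb was 78.7 RPKM in healthy endothelial library C, where the others were 282 to 408. Egr1 was 206 RPKM in myeloma-bearing stromal progenitor library G, where the others were 756 to 948.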

How the results depend on the processing

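Of 167 alternatives of 14 summary results, 159 gave the main count or one within 1.5 times of it. Each summary result is a count of members, and in most of them that count was 0 called. A count that stayed at 0 is among the 159, and direction was not compared. In healthy endothelial cells against osteoprogenitors, 3 members were called, 1 with a pseudocount of 0.1, 1 with only the 2 groups in the fit, and 0 to 3 when each letter was left out. Leaving out each letter gave 0 to 1 calls in healthy endothelial cells against stromal progenitors (Atf3, without M, adjusted p = 0.080). Letters were checked for pairing: samples of the same letter had correlations of −0.043 to 0.085 in their deviations from group means. The best match was the own letter for 1 of 5 samples between the myeloma groups. In healthy mice it was so for 2 of 5 (endothelial and stromal), 2 of 4 (endothelial and osteoprogenitor) and 3 of 4 (stromal and osteoprogenitor). In myeloma-bearing mice it was so for 2 of 5, 4 of 4 and 3 of 4, in that order. The main fits left letters unpaired, so any tie between samples of a letter is left out of them. With letter as a replicate block 0 members were called in healthy endothelial cells against osteoprogenitors, and no other member call changed. Over all genes the myeloma-bearing against healthy calls of 0, 0 and 1 became 150, 28 and 24 with all 38 libraries in the fit, 147, 27 and 24 with the block, and 251, 82 and 28 in voom-limma. The 4 members that did not overlap between myeloma sites became 7 with letters D, E and G alone, an alternative chosen after seeing the data. In each case 3 of these passed the filter on low values. Of the 8857 genes that passed it, 0.903% were higher in the bone lining without overlap over all letters. With D, E and G alone 5.71% were. The causes were not tested. Precision in central marrow cells is limited by reads, with 17 for Jun in all 5 libraries. The 4 calls in myeloma-bearing mice were kept in all 11 alternatives each. The healthy calls of endothelial cells against osteoprogenitors were kept in 9 of 11 for Atf3, 5 for Fosb and 3 for Egr1, and none reversed.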
